A study of Mus musculus with 4 samples.

Results

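Lymphatic endothelial cells of the mouse thyroid were picked by their UMI counts, not by clustering. Thyroids of C57BL/6 mice at postnatal day 5, 10, 20 and 30 were each profiled as 1 droplet library from 10 pooled mice, with no treatment or genetic change. A unique molecular identifier (UMI) stands for 1 captured transcript. Barcodes with 1000 to 40000 UMIs, at most 10% mitochondrial and at most 5% hemoglobin UMIs were kept. A member had at least 2 of Prox1, Mmrn1, Flt4, Reln and Ccl21a with 2 or more UMIs, or 1 Prox1 UMI and 2 or more UMIs of one of the other 4. It also had at least 1 UMI of Pecam1 or Cdh5, at most 2 of C1qa and C1qb, and 0 of the leukocyte gene Ptprc. These genes chose the members and are given as a description. In all, 113 of 29048 kept barcodes were members, 47 in the day 5, 36 in the day 10, 16 in the day 20 and 14 in the day 30 library. The comparison class, blood endothelial cells, held 6136 barcodes with at least 2 UMIs of Kdr and Flt1, at least 2 of Plvap and 0 of Prox1. The limits on Pecam1, Cdh5, C1qa, C1qb and Ptprc applied to it too, and members that met its gate (2, 1, 0 and 0) were left out of it. It held 3851, 1267, 431 and 587 barcodes in the same order of libraries.

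Lymphatic endothelial cells line the vessels that drain fluid and immune cells from a tissue. Their identity rests on the homeobox factor Prox1, which acts together with Sox18 and Nr2f2. They carry the VEGF-C receptor Flt4 and make the chemokine Ccl21a, which guides dendritic cells and T cells towards lymph nodes. Initial capillaries, which take up fluid, are marked by the hyaluronan receptor Lyve1, whereas collecting vessels lose Lyve1 and carry valves that depend on Foxc2 and Nfatc1. Blood endothelial cells of an endocrine gland are fenestrated and carry Kdr, Flt1 and Plvap.

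The label did not hold for all members. Of the 113, 70 had at least 1 UMI of Mmrn1, which encodes multimerin 1 and is a textbook lymphatic gene, and 43 had none. Members with Mmrn1 numbered 42, 16, 12 and 0 in the day 5, 10, 20 and 30 libraries, and members without it numbered 5, 20, 4 and 14. This split was made after the values were seen, so it carries no test. Of the 14 day 30 members, 12 had entered with exactly 1 Prox1 UMI and at least 2 Flt4 UMIs. None of the 43 members without Mmrn1 had a Ccl21a or a Pdpn UMI, and 1 had a Lyve1 UMI. The members with Mmrn1 are called Mmrn1-positive below.

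Depth moved with the split by Mmrn1 at day 10 and 20, and little at day 5. Median UMIs per member were 6060.5, 5278.5 and 4918 for Mmrn1-positive members of the day 5, 10 and 20 libraries. For members without Mmrn1 the medians were 6770, 25150, 11534.5 and 28006 from day 5 to day 30. Blood endothelial cells had medians of 3463, 5216, 4473 and 7406. Barcodes that met the blood gate apart from its limit on Prox1, and had 0 Mmrn1 and under 2 Ccl21a UMIs, were binned by depth. Among them, the share with at least 1 Prox1 UMI in the day 30 library was 1.56% at 1000 to under 5000 UMIs and 16.1% at 20000 to 40000 UMIs. The share with 2 or more Flt4 UMIs was 3.91% and 58.0% in the same bins. All 14 day 30 members came from the deepest of these bins. At day 10 the shares in that bin were 12.1% for Prox1 and 48.6% for Flt4. At day 5 the Flt4 share was 16.4% at 5000 to under 20000 UMIs and 8.57% in the deepest bin, which held 0 members. At day 20 the Prox1 share was 4.46% and 4.44% in the same bins. The Prox1 share at day 5 and the Flt4 share at day 20 rose with depth. Whether depth set membership was not tested.

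**Figure D1:**
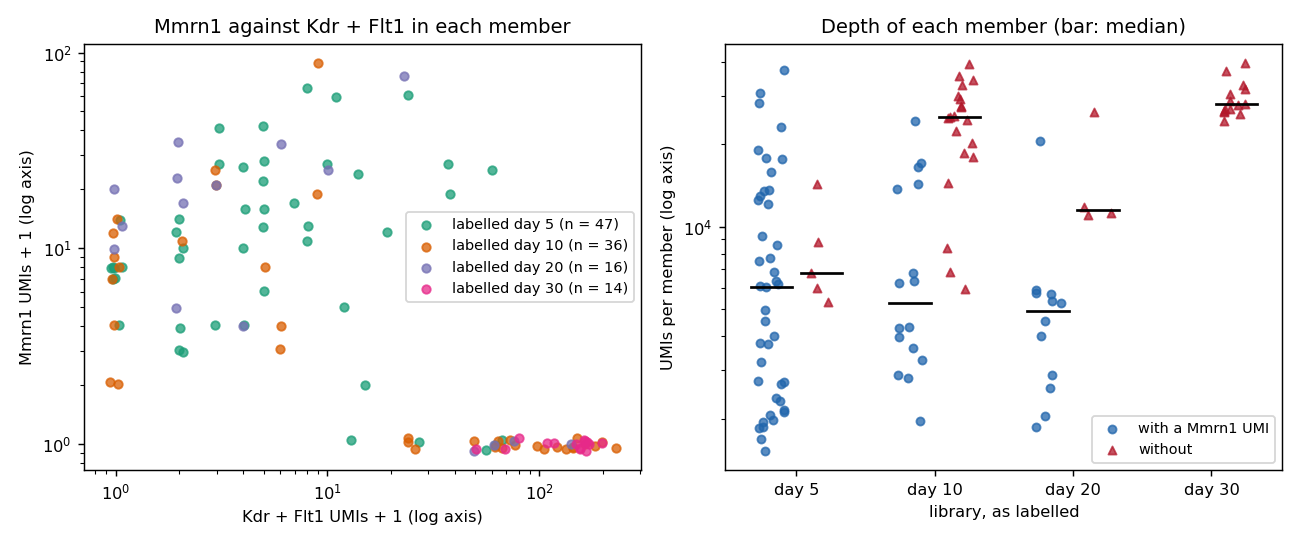
Left, each point is 1 of the 113 members, with Kdr plus Flt1 UMIs on the x axis and Mmrn1 UMIs on the y axis, both plus 1 on log axes and coloured by library. Right, UMIs per member on a log axis by library, with circles for members with Mmrn1, triangles for those without, and bars for medians. Members without Mmrn1 lie along the floor of the left plot at high Kdr and Flt1, and the 14 day 30 members all belong to them.

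Just inside the gate lay members with exactly 1 Prox1 and 2 Flt4 UMIs and fewer than 2 of the other 3 genes, 3, 6, 3 and 1 in the day 5, 10, 20 and 30 libraries. Just outside it lay 9, 11, 3 and 9 barcodes with 1 UMI of Prox1 and 1 of Flt4. Median Kdr plus Flt1 was 26, 48.5, 75 and 49 UMIs inside, and 41, 31, 72 and 61 outside. No barcode on either side had a Mmrn1 UMI. Ccl21a was found in 1 of these barcodes, outside the gate at day 10.

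Lyve1 or Prox1 used alone picked many other cells. Of barcodes with 2 or more Lyve1 UMIs, 134 of 167, 386 of 394, 59 of 68 and 277 of 277 carried more than 2 C1qa and C1qb UMIs or a Ptprc UMI, which mark macrophages and leukocytes. Members made up 27, 7, 9 and 0 of them. Of barcodes with 2 or more Prox1 UMIs, 25 of 71, 15 of 67, 8 of 24 and 2 of 21 were members. Among the rest, 36, 35, 11 and 13 had at least 10 UMIs of Calca, the calcitonin gene of C cells. Of barcodes with 2 or more Mmrn1 UMIs, 41 of 54, 14 of 14 and 12 of 16 were members in the day 5, 10 and 20 libraries, and of those with 2 or more Ccl21a UMIs 38 of 56, 16 of 17 and 9 of 13 were. The gate partly fixes both shares, since it uses these counts. In the day 30 library 0 of 4633 kept barcodes had 2 or more Mmrn1 UMIs. Above the limit of 40000 UMIs, 2 barcodes of the day 30 and 2 of the day 10 library did, so Mmrn1 RNA was not absent at day 30.

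Members took 0.370% of kept barcodes in the day 5 library (95% Clopper-Pearson interval 0.272% to 0.491%). The shares were 0.653% (0.458% to 0.903%) at day 10, 0.258% (0.148% to 0.419%) at day 20 and 0.302% (0.165% to 0.506%) at day 30. Mmrn1-positive members took 0.330% (0.238% to 0.446%), 0.290% (0.166% to 0.471%), 0.194% (0.100% to 0.338%) and 0% (0 to 0.0796%) in that order. The 3 counts that a count of 0 allows would be 0.0648% of the day 30 barcodes. With 1 library per age no test across ages can be made, and these intervals cover counting error only. How cells were freed from the tissue also bears on such shares, and its part was not tested.

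Facts of the libraries limit every statement on age. H19, an imprinted RNA that is known to fall after birth, stood at 1.90, 23.6, 1.19 and 81.8 UMIs per 1000000 UMIs of the class (CPM) in blood endothelial cells of the libraries labelled day 5, 10, 20 and 30. The proliferation gene Mki67 stood at 1.40, 45.8, 0.595 and 57.1 CPM. Both were lowest in the libraries labelled day 5 and 20 and highest in that labelled day 30. In the authors' table of cells, barcodes of suffix 1 matched the library labelled day 30 (6538 of 6555) and those of suffix 4 the library labelled day 5 (15251 of 15297). By these matches the library labelled day 30 had the fewest cells in that table and the library labelled day 5 the most. The paper, in contrast, states that it kept more cells at day 30 than at any other age. Ages are given as labelled, and each direction with age rests on those labels. Whether the labels of the day 5 and day 30 libraries are exchanged was not tested, and the folds between them would then change sign. The genes named below for moving one way through the ages would then no longer do so. Every member of the day 10, 20 and 30 libraries also had UMIs under the same barcode in the other 2 of these libraries, with medians of 13.5 to 49 UMIs. So did 99.78% to 99.95% of all kept barcodes of these libraries. One day 5 member's barcode held 6593 UMIs in the day 20 library.

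The genes of the gate show the 2 kinds of member. Ccl21a lies at chr4:42772860-42773993 (GRCm38, minus strand) and has near-identical copies, among which reads cannot be told apart with certainty. It reached 12608, 14494 and 13194 CPM in Mmrn1-positive members of the day 5, 10 and 20 libraries. In blood endothelial cells it stood at 1.10, 0.528, 0.893 and 0 CPM, and members without Mmrn1 had 0 UMIs in 4 of 4 libraries. Free RNA, measured in droplets of 10 to 100 UMIs, held 35.6, 24.8, 20.6 and 5.59 CPM. Per cell, Mmrn1-positive members had medians of 88.5, 71.5 and 53.0 Ccl21a UMIs, and 39 of 42, 16 of 16 and 11 of 12 had at least 1. The lowest day 10 cell had 16 and the highest of all libraries 574.

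Mmrn1 (chr6:60924976-60989378, plus strand) stood at 1874, 1668 and 4077 CPM in Mmrn1-positive members, with 1 to 65, 1 to 87 and 3 to 75 UMIs per cell. Reln, an extracellular glycoprotein, stood at 541, 317 and 1309 CPM. Prox1 (chr1:190118035-190170714, minus strand) stood at 319, 1434 and 677 CPM in Mmrn1-positive members. In members without Mmrn1 it stood at 146, 53.0, 66.2 and 50.8 CPM, which was mostly a single UMI per cell. Flt4 (chr11:49609263-49652739, plus strand) reached 468, 325 and 858 CPM with Mmrn1, and 267, 123, 149 and 135 CPM without. Blood endothelial cells, which were not gated on Flt4, held 76.2, 75.6, 96.1 and 72.2 CPM of it, and free RNA held 10.96, 10.98, 4.49 and 6.63 CPM.

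The blood genes of the gates ran the other way. Kdr, the main VEGF-A receptor, stood at 586, 264 and 677 CPM in Mmrn1-positive members, at 2110, 1996, 1855 and 2220 CPM in members without Mmrn1, and at 1604, 1625, 1246 and 1647 CPM in blood endothelial cells. Flt1, a decoy receptor of VEGF-A, had 233 CPM in Mmrn1-positive members at day 5 and 0 UMIs at day 10 and 20. Members without Mmrn1 held 3226, 2500, 3494 and 2377 CPM of Flt1. Plvap, a protein of the fenestral diaphragm, stood at 327, 45.3 and 346 CPM with Mmrn1 and at 2110, 2780, 3875 and 3364 CPM without. Single cells carried much of the Mmrn1-positive values. One cell held 87% of the day 20 Plvap UMIs, and 3 day 5 cells had 30, 19 and 13 Flt1 UMIs with 13 Plvap UMIs each. In these genes the members without Mmrn1 lay near or above the blood endothelial level.

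**Figure D2:**
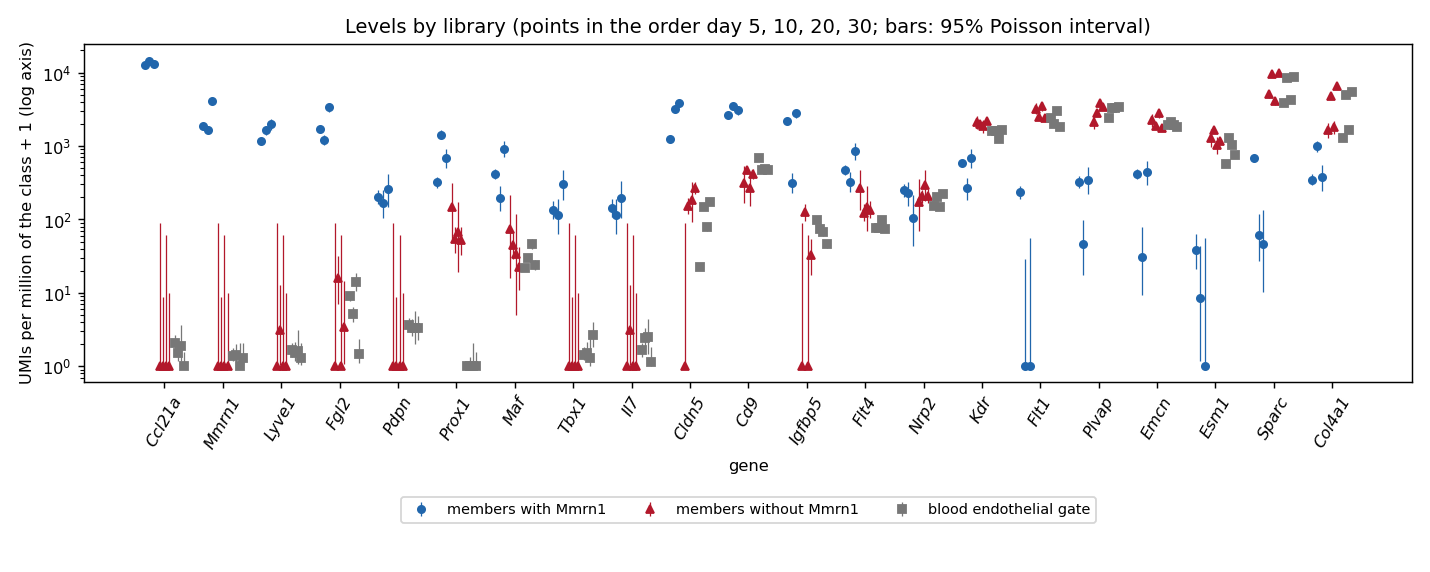
Levels of 21 genes (CPM plus 1, log axis) in members with Mmrn1 (blue circles, 3 libraries), members without Mmrn1 (red triangles, 4 libraries) and blood endothelial cells (grey squares, 4 libraries), with exact 95% Poisson intervals for counting error. Members without Mmrn1 lie close to the blood endothelial cells in genes such as Kdr and Plvap, with Ccl21a at 0 in all 4 libraries, while members with Mmrn1 hold 12608, 14494 and 13194 CPM of Ccl21a.

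Genes outside the gates were tested between all members and blood endothelial cells on UMI sums per library (edgeR quasi-likelihood test, library as block, 8 sums). Of 10332 genes, 3 were higher in members (0.029%) and 1 was lower (0.00968%) at an adjusted p under 0.05. At an unadjusted p under 0.05 the counts were 470 and 408. DESeq2 called 77 higher and 13 lower. Fgl2 (chr5:21372642-21378374, plus strand), a secreted and membrane-bound fibrinogen-like protein, was higher by 6.81 ± 0.45 on the log2 scale (SE, edgeR adjusted p = 0.000439). Olfm1, which encodes olfactomedin 1, was higher by 3.64 ± 0.46 (edgeR adjusted p = 0.0446). Kbtbd11 was higher by 5.07 ± 0.50 (edgeR adjusted p = 0.00719), at 60.3, 13.2, 55.2 and 9.67 CPM over all members against 0.306 to 1.40 CPM. It is named outside the rule given below, which asks for 50 CPM, since it held 28.2 CPM over the members of all libraries. The direction of each of these 3 genes was the same in 4 of 4 libraries. Fgl2 in the day 30 members, however, lay below the 7.26 CPM that 3 UMIs give there. With the 6% highest Scrublet scores removed Fgl2 was called and Pth was not, while Olfm1 and Kbtbd11 did not pass the count filter and were not tested. With cells thinned to 1000 UMIs Pth was called, and the other 3 did not pass the filter. Without the day 10 library Fgl2 and Kbtbd11 alone of the 4 were called. Without the day 20 library, none of these calls nor that of Pth below held, and 1 other gene was higher and 0 were lower. Without the library block 0 genes were called in either direction, with 403 higher and 212 lower at an unadjusted p under 0.05.

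Fgl2 again stood with Mmrn1. It reached 1729, 1208 and 3370 CPM in Mmrn1-positive members, against 0, 14.8, 0 and 2.42 CPM in members without Mmrn1 and 7.97, 4.13, 13.1 and 0.459 CPM in blood endothelial cells. It was found in 40 of 42, 13 of 16 and 12 of 12 Mmrn1-positive members. Olfm1 stood at 112, 189 and 301 CPM in Mmrn1-positive members, above blood endothelial cells in each library, which held 3.06 to 6.86 CPM. Pth, the parathyroid hormone gene, was the gene called lower, by 3.56 on the log2 scale (SE 0.32, edgeR adjusted p = 0.00455). It is no endothelial gene, and free RNA held 2057, 1432, 3838 and 1698 CPM of it.

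The count of calls rose where the deep members were left out. With at most 10000 UMIs per barcode, the upper limit of the study's methods, 58 members remained (33, 14, 11 and 0), of which 51 were Mmrn1-positive and 7 were not. The day 30 library then dropped out of the fit, which used 6 sums. Against 3379, 878 and 328 blood endothelial cells of these 3 libraries, 384 of 8219 genes were higher (4.67%) and 473 were lower (5.75%). Without the day 30 library but with all depths, 140 were higher and 15 lower. The 4 genes called over all members were called here too. Since the cells were chosen on genes that mark the 2 classes, genes that travel with those markers follow the choice. A gene nearly absent from blood endothelial cells could pass the count filter only through the members, and could then only come out higher. Lyve1, Pdpn, Pard6g, Tbx1, Il7, Cldn11, Sema3a and Sema3d below are such genes. The reverse holds for genes nearly absent from members, such as Vegfc. The fit of at most 10000 UMIs is an alternative to the planned test, which used all members. Of the settings tried, this fit called the most genes in each direction. Its p-values and list counts do not replace those of the planned test. The values below come from the fit of at most 10000 UMIs unless said otherwise. Beside them stand CPM levels of Mmrn1-positive members of all depths in the day 5, 10 and 20 libraries. CPM ranges of blood endothelial cells are also of all depths and can include the day 30 library. Folds and levels thus cover different sets of cells.

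Lymphatic markers outside the gate were higher in members, 8 of 9 tested (median log2 difference 5.65, against -0.17 over all genes tested) and none was lower. In the fit over all members 1 of 6 was called higher and the median was 3.02. Lyve1, Pdpn and Pard6g were nearly absent from blood endothelial cells and could only come out higher, so the count of 8 was partly fixed. Lyve1 (chr7:110850607-110863239, minus strand) was higher by 10.94 ± 0.35 (edgeR adjusted p = 5.4e-21). It stood at 1162, 1638 and 1971 CPM in Mmrn1-positive members and at 0.306 to 0.651 CPM in blood endothelial cells. A Lyve1 UMI was found in 30 of 42, 7 of 16 and 9 of 12 Mmrn1-positive members and in 0.312%, 0.474% and 0.464% of blood endothelial cells. With each cell thinned to 1000 UMIs 21, 7 and 7 of these members kept one, against 0.0519%, 0.158% and 0% of blood endothelial cells. The podoplanin gene Pdpn, whose product binds platelets and keeps lymph and blood apart, stood at 203, 166 and 256 CPM against 2.29 to 2.71 CPM in blood endothelial cells.

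Thy1 (5.65 ± 0.34), the ceruloplasmin gene Cp (5.50 ± 0.32), the lipopolysaccharide-binding protein gene Lbp (4.30 ± 0.27), the polarity gene Pard6g (7.81 ± 0.33) and the tetraspanin Cd9 (2.50 ± 0.21) were the other lymphatic markers called higher, by log2 difference and SE. Cd9 was abundant in both classes, at 2685, 3533 and 3069 CPM in Mmrn1-positive members and 469 to 677 CPM in blood endothelial cells. Nrp2, the co-receptor of Flt4, did not pass the test (0.33 ± 0.27, edgeR adjusted p = 0.58). Its levels of 252, 226 and 105 CPM overlapped with the 148 to 221 CPM of blood endothelial cells. Among the highest folds of genes on no list were those of Sh3gl3, Lcn2, Slc45a3 and Dtx1, which are named after their values were seen. Lcn2, which encodes the iron-carrying protein lipocalin 2, stood at 666, 158 and 1535 CPM, with 38 of 42, 7 of 16 and 11 of 12 cells positive.

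Of 12 transcription factors tested, 6 were higher and 4 lower (median 1.61). Maf (4.37 ± 0.33), Tbx1 (7.57 ± 0.60), Nr2f2 (3.14 ± 0.27), Nfatc1 (2.72 ± 0.34), Foxc2 (5.85 ± 0.87) and Foxp2 (2.03 ± 0.48) were higher. Maf stood at 418, 196 and 918 CPM against 20.6 to 45.2 CPM, and Tbx1, a T-box factor needed for lymphatic vessel growth, at 134, 113 and 301 CPM against 0.298 to 1.68 CPM. Nr2f2, the partner of Prox1, stood at 319, 242 and 707 CPM. Sox18, which switches on Prox1 in the embryo, was lower by 1.05 on the log2 scale (SE 0.26, edgeR adjusted p = 0.0054), at 351, 634 and 226 CPM against 613 to 838 CPM. Mef2c and Gata2 were among the lower genes as well. Mef2c stood at 169, 83 and 196 CPM in Mmrn1-positive members and at 718 to 777 CPM in blood endothelial cells.

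Of 6 VEGF receptor and ligand genes tested, Pgf, a ligand of Flt1, was higher (2.68 ± 0.80) and 2 were lower. Nrp1, the co-receptor of Kdr, was lower (-2.13 ± 0.39), with 120, 0 and 0 CPM in Mmrn1-positive members and 789 to 1507 CPM in blood endothelial cells. The ligand gene Vegfc had 0 UMIs in all 70 Mmrn1-positive members and 24.2 to 52.2 CPM in blood endothelial cells. The 3 counts that a count of 0 allows would be 8.03, 22.6 and 45.1 CPM in the 3 libraries, so at day 20 a level below that of the blood cells was not detectable at this depth. Of 6 angiopoietin and Tie genes, Angpt2 (1.80 ± 0.48) and Angptl4 (2.74 ± 0.58) were higher, while Tek (-1.36 ± 0.34) and the phosphatase Ptprb (-1.53 ± 0.25) were lower. Tie1 gave -0.27 ± 0.24 and did not pass.

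Among 12 genes of leukocyte traffic, Il7 was higher and Cxcl12 and Cx3cl1 were lower. Il7, a cytokine that keeps lymphocytes alive, was higher by 7.04 ± 0.60 (edgeR adjusted p = 2.5e-10) and stood at 145, 113 and 196 CPM, against 0.153 to 1.49 CPM in blood endothelial cells. The sphingosine 1-phosphate exporter Spns2 (0.57 ± 0.37), the receptor S1pr1 (-0.21 ± 0.26) and the scavenging receptor Ackr3 (0.37 ± 0.26) did not pass the test. The venular genes Ackr1, Selp and Sele were near 0 in members, with 1 UMI in all for Ackr1 and 0 for Selp and Sele among Mmrn1-positive members. Blood endothelial cells held only 2.20 to 12.5 CPM of these genes in the same libraries, near or below what 3 UMIs give in the members (8.03, 22.6 and 45.1 CPM), so no difference was detectable at this depth. Of the scavenger receptors, Stab1 (2.40 ± 0.25), Mrc1 (4.95 ± 0.90), Colec12 and Fcgrt were higher and Scarb1, an HDL receptor, was lower (-2.24 ± 0.34). Mrc1, also a macrophage gene, stood at 21.4, 15.1 and 45.1 CPM. Stab2, well known from lymph node and liver sinuses, had 0 UMIs in Mmrn1-positive members. The 5 macrophage genes of the marker lists summed to 30.1 to 45.3 CPM in Mmrn1-positive members. In blood endothelial cells of the same libraries they summed to 28.3 to 35.5 CPM. Both gates limited C1qa, C1qb and Ptprc, so low sums in both classes were partly fixed by the choice of cells.

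Junction genes differed in both directions. Cldn5, the tight junction claudin of endothelium, was higher by 5.32 ± 0.34 and stood at 1229, 3208 and 3806 CPM against 21.8 to 173 CPM in blood endothelial cells. Cldn11 (8.35 ± 0.77) and the connexin Gja4 (1.06 ± 0.27) were higher too. Esam (-2.26 ± 0.31), Jam2 (-2.21 ± 0.41) and Jam3 (-2.79 ± 0.42) were lower. In the valve and collecting vessel list, 7 of 14 genes were higher and 2 lower (median 0.68). Besides Foxc2, Nfatc1, Cldn11 and Gja4 these were the integrin Itga9 (1.77 ± 0.36), which is needed for valve leaflets, the guidance gene Sema3a (7.38 ± 0.82) and the elastic fibre gene Emilin1 (1.79 ± 0.59). Plxnd1 was lower (-1.45 ± 0.33).

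In all, 5 of 21 matrix genes were higher and 7 lower (median -0.33). The basement membrane genes Col4a1 (-1.46 ± 0.22), Col4a2, Nid1 and Hspg2 (-2.07 ± 0.26) were lower, with Sparc (-2.24 ± 0.44), Sparcl1 and Fbln2 (-1.48 ± 0.37). Sparc stood at 688, 60.4 and 45.1 CPM in Mmrn1-positive members and at 3847 to 8678 CPM in blood endothelial cells. Higher were Fn1 (3.67 ± 0.40), Fbln5 (2.84 ± 0.36), Timp2 (3.74 ± 0.24), Emilin1 and the laminin gene Lama4 (0.88 ± 0.27). Fn1, which encodes fibronectin, stood at 206, 1872 and 316 CPM, and 1 cell held 42.9% of its day 5 UMIs.

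The list of blood endothelial genes was lower in 16 of 19 tested (median -2.03) and higher in 1. In the fit over all members 0 of 20 were called and the median was -0.64. Emcn (-2.08 ± 0.25), Esm1 (-1.58 ± 0.38), Cd34 (-2.77 ± 0.35), Aplnr (-2.35 ± 0.40) and Cd300lg (-1.65 ± 0.26) were among the lower genes. Esm1, a tip cell gene, stood at 37.5, 7.55 and 0 CPM in Mmrn1-positive members, and at 1286, 1669, 1027 and 1183 CPM in members without Mmrn1. For Mmrn1-positive members of all depths its log2 difference was -4.98. Blood endothelial cells held 573 to 1305 CPM. Igfbp5, on that list, was higher by 5.65 ± 0.43 and stood at 2187, 317 and 2783 CPM. Cav1, present in caveolae of both vessel kinds, did not pass the test (0.24 ± 0.24).

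**Figure D3:**
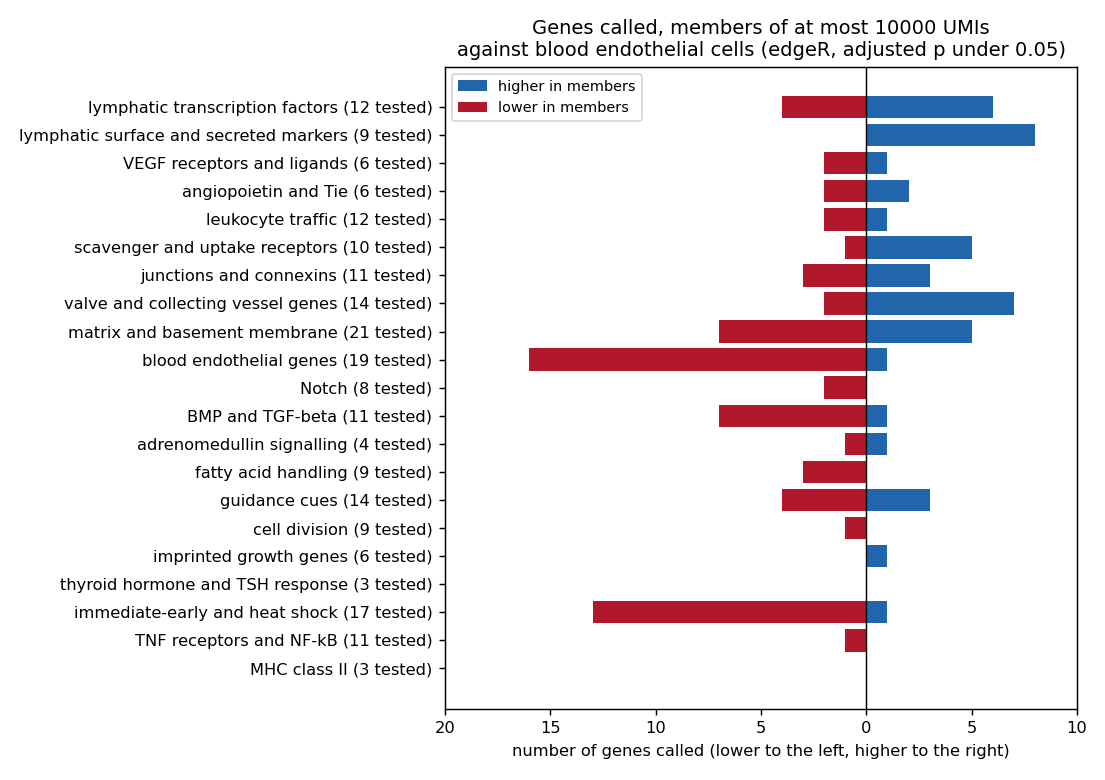
Number of genes called higher (blue, right) or lower (red, left) in members of at most 10000 UMIs than in blood endothelial cells, for each gene list with 3 or more genes tested, given in brackets (edgeR, adjusted p under 0.05). Marker lists of other cell types are not shown. The lists were chosen with earlier results of these data known. Genes nearly absent from either class could be called in a single direction only. The fit is an alternative to the planned test over all members. Lymphatic surface markers are called higher in 8 of 9 and blood endothelial genes lower in 16 of 19, while 384 of 8219 genes were higher and 473 lower over all.

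Of 11 BMP and TGF-beta genes, 7 were lower and 1 higher. Id1 (-1.61 ± 0.35) and Id3 (-1.76 ± 0.30), which BMP signals switch on, and the co-receptor Eng (-1.54 ± 0.23) were lower. Tgfbr2 was higher (0.86 ± 0.24). Of 8 Notch genes, Notch4 (-2.29 ± 0.52) and the ligand Jag2 (-2.20 ± 0.49) were lower, and Notch1 gave -0.01 ± 0.25. Adrenomedullin signalling is known to control lymphatic growth. Adm was higher by 2.43 ± 0.43, at 93.7, 264 and 226 CPM, and the receptor partner Ramp3 was lower by 2.42 (SE 0.36). The receptor Calcrl (-0.50 ± 0.26) and the partner Ramp2 (0.02 ± 0.21) did not pass.

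Fatty acid genes were lower in 3 of 9, namely Fabp4 (-3.16 ± 0.43), Fabp5 (-2.28 ± 0.43) and Gpihbp1 (-1.12 ± 0.23). Fabp4 differed between libraries, at 1349, 30.2 and 662 CPM in Mmrn1-positive members. Of 14 guidance genes, Sema3a, Sema3d (7.94 ± 0.53) and Sema6a were higher and Sema3c, Sema7a, Plxnd1 and Robo4 were lower. Sema3d, a secreted semaphorin, stood at 190, 272 and 421 CPM against 0.298 to 1.14 CPM. Of 3 thyroid hormone and TSH response genes tested none was called, and the hormone receptor gene Thra gave 0.92 ± 0.35 (edgeR adjusted p = 0.098). Among 11 TNF receptor and NF-kB genes, Tnfrsf1a was called lower. Of 9 cell division genes Hmgb2 was called lower, and Mki67 had 0, 45.3 and 0 CPM in Mmrn1-positive members. Of 6 imprinted genes Igf2 was called higher. No MHC class II gene of 3 was called. Over all 8219 genes of this fit 4.67% were higher and 5.75% lower. A single call in a list of this size is near those shares. No count of a few genes in a short list, here or above, is read as a result about that list.

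Immediate-early and heat shock genes, which respond to tissue dissociation, were lower in 13 of 17 and higher in 1 (median -1.25). In the fit over all members 0 of the same 17 were called and the median was 0.07, and in members without Mmrn1 the median log2 difference was 0.22, so the sign turned with the cells included. Jun (-1.34 ± 0.24), Egr1 (-1.17 ± 0.25) and Fos (-0.91 ± 0.23) were lower and Klf6 was higher (1.03 ± 0.25). Fos still stood at 1601, 506 and 1670 CPM in Mmrn1-positive members. Marker genes of other cell types were summed in each class. The 5 mural genes summed to 8.03 to 22.6 CPM in Mmrn1-positive members, with Acta2 and Pdgfrb at 0, and to 425 to 661 CPM in blood endothelial cells. The 5 fibroblast genes summed to 313, 37.7 and 30.1 CPM, with Pdgfra at 0, against 609 to 1161 CPM. The 6 follicular genes summed to 19678, 234 and 346 CPM against 2204 to 14456 CPM. Of the day 5 sum, Tg made up 19046 CPM, and 1 cell held 2544 of its UMIs. Calca reached 3084 CPM at day 5, of which 1 cell held 70.3%. The part of such RNA in the results was not tested.

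Members without Mmrn1 were set against blood endothelial cells in 4 libraries, which is a stricter rule than the 3 libraries of Mmrn1-positive members. Of 3881 genes with at least 50 CPM in either class, 0 were at least 2-fold higher and 3 (0.0773%) at least 2-fold lower in 4 of 4 libraries, namely Pth, Mt1 and Mt2. Depth limited this count, since 3 UMIs were 72.8 CPM in the 5 such members of day 5 and 49.7 CPM in the 4 of day 20, so few genes near 50 CPM could show a 2-fold difference in each library. For Mmrn1-positive members, 236 of 3993 genes (5.91%) were at least 2-fold higher and 287 (7.19%) at least 2-fold lower in 3 of 3 libraries. Each fold had 0.5 UMI added, so a gene without UMIs in the members of a library could count as higher there. H19 was such a gene in the day 20 library. The counts for both kinds of member are a description, since the split was chosen after the values were seen. The blood endothelial list had a median log2 difference of -0.07 over 17 genes without Mmrn1 and of -3.30 over 17 genes with Mmrn1. The 5 mural genes summed to 121, 1062, 0 and 924 CPM in members without Mmrn1, against 436, 661, 516 and 425 CPM in blood endothelial cells. The 5 fibroblast genes summed to 2329, 598, 33.1 and 77.4 CPM, against 609, 1159, 1161 and 721 CPM. Of the Rgs5 UMIs of members without Mmrn1, 1 cell held 25.8% at day 10 and 65.2% at day 30. A single member of the day 30 library held 2099 UMIs of Calca. One day 10 member without Mmrn1 and without Prox1 had 12 Reln and 2 Flt4 UMIs. It also had 47 Col1a1 UMIs among 39256 UMIs, and its Scrublet score was among the 6% highest.

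Mmrn1-positive members themselves varied in Lyve1. With at least 1 Lyve1 UMI there were 30, 7 and 9 cells in the day 5, 10 and 20 libraries, and without it 12, 9 and 3. This split too was made after the values were seen, and its numbers of cells are small. Ccl21a stood at 16891, 16850 and 25504 CPM in cells with Lyve1 and at 3123, 12465 and 62.2 CPM in cells without. Reln stood at 696, 620 and 2069 CPM with Lyve1 and at 198, 56.2 and 498 CPM without. Igfbp3 stood at 435, 228 and 408 CPM with Lyve1 and at 34.4, 98.4 and 0 CPM without. These genes were picked after their values were seen, and 3 UMIs are 93.3 CPM in the 3 day 20 cells without Lyve1, so they are given as values alone.

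Further genes are given in the same way. Cldn11 stood at 15.5, 32.6 and 29.1 CPM with Lyve1 and at 17.2, 899 and 124 CPM without in the day 5, 10 and 20 libraries, and rested on few UMIs at day 5 and 20, where the Poisson intervals overlapped. Foxc2 stood at 48.9 and 183 CPM at day 10, at 15.5 and 25.8 CPM at day 5, and at 29.1 and 155 CPM at day 20. Fn1 stood at 97.1, 1060 and 204 CPM with Lyve1 and at 447, 2572 and 435 CPM without. Prox1 itself stood at 307, 652 and 554 CPM with Lyve1 and at 344, 2108 and 808 CPM without. Nts, which encodes neurotensin and is known from lymphatic endothelium in culture, stood at 124, 114 and 29.1 CPM with Lyve1 and at 207, 1377 and 124 CPM without. Of the day 10 Nts UMIs, 1 cell held 46.7%. The Poisson intervals of Foxc2 overlapped between the 2 kinds of cell in each library.

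**Figure D4:**
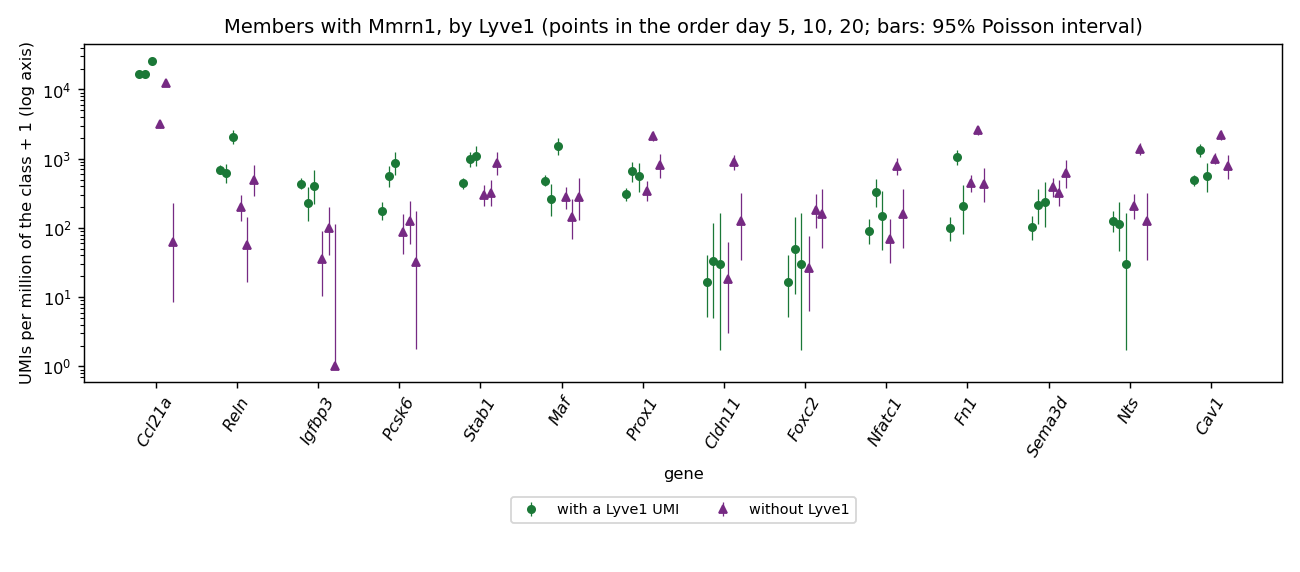
Levels of 14 genes (CPM plus 1, log axis) in Mmrn1-positive members with a Lyve1 UMI (green circles) and without (purple triangles), in the day 5, 10 and 20 libraries from left to right, with exact 95% Poisson intervals for counting error. The genes were picked after their values were seen, and Cldn11 at day 10 lies at 32.6 CPM with Lyve1 and 899 CPM without.

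Across the labelled ages, all members of the day 30 and day 5 libraries were compared by a fold alone. Of 2259 genes with at least 100 CPM in either, 472 (20.9%) were at least 2-fold higher and 344 (15.2%) at least 2-fold lower in the day 30 library. The members differed in kind, since Mmrn1-positive cells made up 42 of 47 at day 5 and 0 of 14 at day 30. Within members without Mmrn1, an alternative chosen after seeing the data, the counts were 258 and 419, from 5 cells at day 5.

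Among genes that moved one way through the 4 libraries in the order of their labels, some differed between the 2 kinds of member. Clec14a, an endothelial adhesion gene, stood at 65.1, 384, 418 and 600 CPM over all members (log2 ratio of day 30 to day 5 3.18, counting interval 2.63 to 3.83). Among Mmrn1-positive members it stood at 32.1, 7.55 and 0 CPM, and among members without Mmrn1 at 364, 490, 878 and 600 CPM. Kctd12b (2.93), Nfkbiz (3.87), Adamts9 (3.08) and Grrp1 (2.69) were the other rises. Nfkbiz, an atypical IkB protein, stood at 9.64, 62.9, 134 and 157 CPM over all members, and at 8.03, 30.2 and 60.2 CPM in Mmrn1-positive members. In the latter 3 UMIs give 8.03, 22.6 and 45.1 CPM, so no rise can be read among them. The falls were Dcn (-4.83), Cd74 (-4.33), Gsn (-3.15), Nupr1 (-3.08) and Mpp7 (-3.52). Dcn, a fibroblast proteoglycan, stood at 239, 131, 23.6 and 7.26 CPM over all members, and at 1116 CPM in the 5 day 5 members without Mmrn1. Mpp7 stood at 169, 438 and 135 CPM in Mmrn1-positive members, with no one-way fall.

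Between Mmrn1-positive members of the 3 libraries, H19 (chr7:142575529-142578143, minus strand) showed a wide range. It stood at 5.35, 944 and 0 CPM at day 5, 10 and 20, with 2 of 42, 8 of 16 and 0 of 12 cells positive, and 1 day 10 cell held 53.6% of its UMIs. Blood endothelial cells of the day 10 library held 23.6 CPM and free RNA 76.8 CPM. Igf2, its neighbour and a growth factor gene, stood at 32.1, 90.6 and 0 CPM. Fn1 and Prox1 were also highest at day 10, whereas Igfbp5, Lcn2, Maf and Fabp4 were lowest there. In the same library, cells without Lyve1 made up 9 of 16 Mmrn1-positive members, against 12 of 42 and 3 of 12 in the others.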

How the data were processed

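Cells of 4 thyroid libraries, each of 10 pooled mice, were analysed from gene by barcode matrices. The values are raw UMI counts per gene and barcode, deposited by the authors, who mapped reads to mm10 with CellRanger and counted UMIs without a cell filter. The submitters' processing notes name Seurat (3.1.4 and 3.6.3). A table of the authors' cells served only for its barcode list. Barcodes were filtered and gated as stated in the text, with no doublets removed. Scrublet (scanpy 1.11.5) scores served as an alternative. Counts were summed per library and class and fitted with edgeR 4.0.16 (TMM, filterByExpr, quasi-likelihood test, library as block, Benjamini-Hochberg adjustment, threshold 0.05), with DESeq2 1.42.0 as an alternative. The 13 gate genes were not counted as calls. Each SE was derived as the absolute log2 difference divided by the square root of the quasi-likelihood F statistic. The scripts were tested on simulated data. CPM is UMIs per 1000000 UMIs of a class, and Poisson and Clopper-Pearson intervals cover counting error only.

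The members and 30 gene lists were chosen with earlier results of these data known. Named genes were gate genes, list members that passed the test, had at least 50 CPM or were well known and near 0, up to 10 called genes in each direction with the largest fold and at least 50 CPM, and the 5 largest one-way rises and falls over the labelled ages among genes of at least 100 CPM. Genes named outside this rule are said to be so. Libraries held 54921806 to 89039113 UMIs over all barcodes. With 1 library per age, nothing was tested across ages, and p-values use the spread between 4 libraries, or 3 in the fit of at most 10000 UMIs. The edgeR fit draws each gene's spread towards that of all genes, so its p-values do not rest on these few libraries alone. Alternatives changed the depth limits, mitochondrial limit, doublets, gates, size factors, gene filter, pseudocount, thinning to 1000 UMIs, the block and the libraries. Values of some list genes are not reported here.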

Additional observations from a re-analysis of the deposited data

How the results depend on the processing

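Counts of genes called between members and blood endothelial cells moved with most settings. From 3 higher and 1 lower they went to 77 and 13 with DESeq2, 201 and 94 with no filter on low counts, 48 and 72 with cells thinned to 1000 UMIs, 384 and 473 with at most 10000 UMIs, 20 and 31 with the blood gate freed of the limits on Pecam1, Cdh5, C1qa, C1qb and Ptprc, and 6 and 3 with a Prox1 UMI required. Removing the 6% highest Scrublet scores gave 6 higher and 1 lower, of which 1 was among the 4 genes called over all members. Thinned cells also kept 1 of the 4. Genes of the 4 that did not pass the count filter in these 2 settings were not tested there. Leaving out 1 library gave 1 to 140 higher and 0 to 20 lower. DESeq2 size factors in edgeR left both counts as they were. Without the block of library, which pairs the 2 classes of 1 library since both come from the same pooled mice, the counts were 0 and 0. The causes were not tested, apart from the smaller number of libraries or cells that a setting leaves by construction.

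The share of members moved at day 10 to 0.366% and at day 30 to 0% with at most 10000 UMIs, and to 0.290% and 0% with a Mmrn1 UMI required, a setting chosen after seeing the data. Genes at least 2-fold higher and lower at day 30 than day 5 numbered 873 and 584 at a minimum of 50 CPM, 1152 and 540 with thinned cells, and 258 and 419 among members without Mmrn1, where more genes were lower than higher. With at most 10000 UMIs these 2 counts could not be computed, since no day 30 member was left. None of the 4 genes called over all members changed direction in the settings that tested them, whereas lower calls outnumbered higher ones with thinned cells, at most 10000 UMIs, the freed blood gate and without the day 5 library (10 and 20). The 14 day 30 members and 12 Mmrn1-positive day 20 members limit the precision of every level given for them.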
